A study of Mus musculus with 2 samples.

Results

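Cathepsins, the proteases that break down protein inside lysosomes, were described here together with the vacuolar proton pump that acidifies these organelles. The set was taken by gene symbol: the cathepsins (Cts and 1 letter), the subunits of the vacuolar ATPase (Atp6v0 and Atp6v1) and its accessory proteins (Atp6ap), the lysosomal membrane glycoproteins Lamp1 to Lamp3, and the Ragulator subunits Lamtor1 to Lamtor5. Of the 31253 genes in the files, 52 matched and 40 had at least 20 unique molecular identifiers (UMIs, 1 per captured transcript) over both libraries. These 40 members are 10 cysteine cathepsins, 4 aspartic or serine cathepsins, 8 subunits of the membrane sector V0, 9 subunits of the cytosolic sector V1, 2 accessory proteins, 2 Lamp genes and 5 Ragulator genes. Ctsg (24 UMIs), Atp6v0a4 (52) and Ctsk (180) lay just inside the limit. Atp6v1g3 (13 UMIs), Atp6v1fnb (12), Atp6v0e2 (7), Lamp3 (5), Atp6v1c2 (3) and Atp6ap1l (2) lay outside it, and Atp6v1b1, Atp6v1e2, Ctsj, Ctsm, Ctsq and Ctsr had 0 UMIs.

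The samples were 2 single-cell RNA libraries from mouse gliomas, 1 treated with PBS (phosphate-buffered saline) and 1 with EM, which the labels do not spell out and whose title adds 72 h. Both hold living immune cells that were sorted as CD45.2+CD45.1-, which the labels call endogenous, and both were made on the BD Rhapsody microwell system. No label gives a mouse strain, an age, a time for the PBS library or the number of animals. With 1 library per group no difference between the libraries has a replicate check or a test.

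Lysosomal proteases are made as inactive precursors and are activated in the acid of endosomes and lysosomes. The vacuolar ATPase supplies this acid: V1 splits ATP in the cytosol and V0 carries the protons through the membrane. Macrophages, microglia and dendritic cells use the same enzymes to digest what they engulf and to cut antigen for presentation. Ragulator anchors the mTORC1 growth signalling complex to the lysosome, and the transcription factor TFEB with its relatives drives many lysosomal genes through a palindromic element called CLEAR, which contains the E-box.

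Promoter sequence is shown because the members are known for this shared element. RefSeq promoters (GRCm38.p6, 250 bases before to 50 after each start) were found for 29 of the 40 members, 3 of them with more than 1 start. The E-box CACGTG, which reads the same on both strands, lay in 11 of these 29 (37.9%), against 8.09% of all 27025 genes with a promoter. The longer TCACGTGA, which contains it and is also its own complement, lay in 5 (17.2%), against 1.12%: Atp6v0d1, Atp6v0e, Atp6v1a, Ctsa and Ctsd. The full palindrome, TCACGTGA with a G before it and a C after it, lay in 0 of the 29, against 0.37% of all genes. GAAA followed by any 2 bases and a second GAAA, the core of the interferon-stimulated response element, was searched on both strands and lay in 4 (13.8%; Atp6v1d, Ctso, Ctss and Lamp1), against 3.99%. A match describes the letters and not a bound site. The stretches below, 5′ to 3′ on the gene's strand and ending no later than the base before the start, have 1 copy of the element in capitals, and a further E-box in the Lamp1 stretch is in lower case. They are at chr7:142387889-142387956 (minus strand), chr2:164833730-164833772 (plus), chr16:44139354-44139421 (minus), chr8:13159070-13159135 (plus) and chr7:101905739-101905804 (plus), in this order.
Ctsd: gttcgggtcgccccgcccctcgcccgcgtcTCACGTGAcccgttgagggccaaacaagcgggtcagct
Ctsa: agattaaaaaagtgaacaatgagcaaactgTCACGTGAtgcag
Atp6v1a: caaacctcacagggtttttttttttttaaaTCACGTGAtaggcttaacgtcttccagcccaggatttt
Lamp1: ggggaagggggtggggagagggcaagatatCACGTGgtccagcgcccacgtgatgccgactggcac
Lamtor1: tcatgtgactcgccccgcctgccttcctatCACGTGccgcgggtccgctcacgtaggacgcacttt
The copy in capitals began 99 bases before the start in Ctsd, 13 in Ctsa, 132 in Atp6v1a, 61 in Lamp1 and 68 in Lamtor1. Lamp1 had further E-boxes 45, 28 and 15 bases before its start, and Ctsd had another 245 bases before. The promoter of Ctss, the most abundant cathepsin in microglia, held no E-box in this window.

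The PBS library kept 7756 cells with a median of 4303 UMIs, and the EM library 7967 cells with a median of 2016. Cells were gated by marker genes, none of them a member, into macrophages (1112 PBS and 384 EM cells), microglia (234 and 330), monocytes (378 and 259), dendritic cells (138 and 364) and lymphoid cells (4222 and 5732). Each class is a range of a marker score and not a sharply bounded cell type: scores between the limit of 0.3 and 0.36 were held by 38 PBS and 36 EM microglia and by 28 PBS and 16 EM dendritic cells. Against all other cells the genes that led were Olfml3, Tmem119 and P2ry12 in microglia, Vcan in monocytes, Xcr1 and Flt3 in dendritic cells and Trac in lymphoid cells. In macrophages Mmp13, Ccl8, Mrc1 and Arg1 led, and 0 of the top 10 genes were on the macrophage marker list or on another list. Depth differed most where the cathepsins are highest: macrophages had a median of 10568.5 UMIs in PBS and 851.5 in EM, and microglia 8602.5 and 867. Different clusters led in the libraries for 3 classes, for macrophages cluster 3 with 869 PBS cells and cluster 10 with 312 EM cells, and for microglia cluster 18 with 155 PBS cells and cluster 14 with 275 EM cells. For lymphoid cells they were cluster 0 with 1809 PBS cells and cluster 1 with 1795 EM cells. Cluster 11 held most monocytes (302 and 137 cells) and cluster 12 most dendritic cells (84 and 254). The 9 microglial markers, all of them detected, summed to 1599 and 4796 CPM (a gene's UMIs as parts of 1000000 UMIs of the class) in PBS and EM microglia and to 169 and 352 CPM in macrophages. T cell markers stood in the 4 myeloid classes at 1.28 to 1.5% of their T cell level in PBS and at 2.78 to 4.41% in EM. Malat1, an RNA kept in the nucleus, was at 2706 CPM in PBS against 866 CPM in EM macrophages, and at 2152 and 459.5 CPM in microglia. Xist stood at 10.6 CPM in PBS against 384 CPM in EM and Y-linked Ddx3y at 192 and 4.46 CPM, which separates the libraries by sex-linked expression; Atp6ap1, Atp6ap2 and Lamp2 lie on the X chromosome. In dendritic cells the 7 monocyte markers summed to 485 CPM in PBS against 2844 CPM in EM, with 4 of them at 0 in EM, and the 7 markers of non-immune cells to 528 and 3.22 CPM, with 5 of them at 0 in each library. In monocytes the 8 macrophage markers summed to 4406 and 1574 CPM. The part of these differences in the results was not tested.

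Together the members made up 2.62% of macrophage UMIs in PBS and 3.27% in EM. In microglia they made up 3.16% and 4.68%, in monocytes 1.61% and 1.33%, in dendritic cells 0.644% and 0.631%, and in lymphoid cells 0.340% and 0.344%. The proteases carried most of this weight: the 10 cysteine cathepsins alone were 1.94% and 2.56% of macrophage UMIs and 2.45% and 3.55% of microglial UMIs. Of the 40 members, 16 were highest in microglia and 14 in macrophages in PBS, and 22 and 5 in EM. The class with the highest level was the same in both libraries for 21 members, 15 of them in microglia. The members that were highest in lymphoid cells in both libraries were Ctsw, Lamtor4 and Atp6v1g2. In EM the next class was close for Lamtor4, at 66.6 CPM in lymphoid cells against 61.8 CPM in macrophages. It was also close for Atp6v1g2, at 4.90 CPM against 4.03 CPM in dendritic cells, both low levels.

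**Figure D1:**
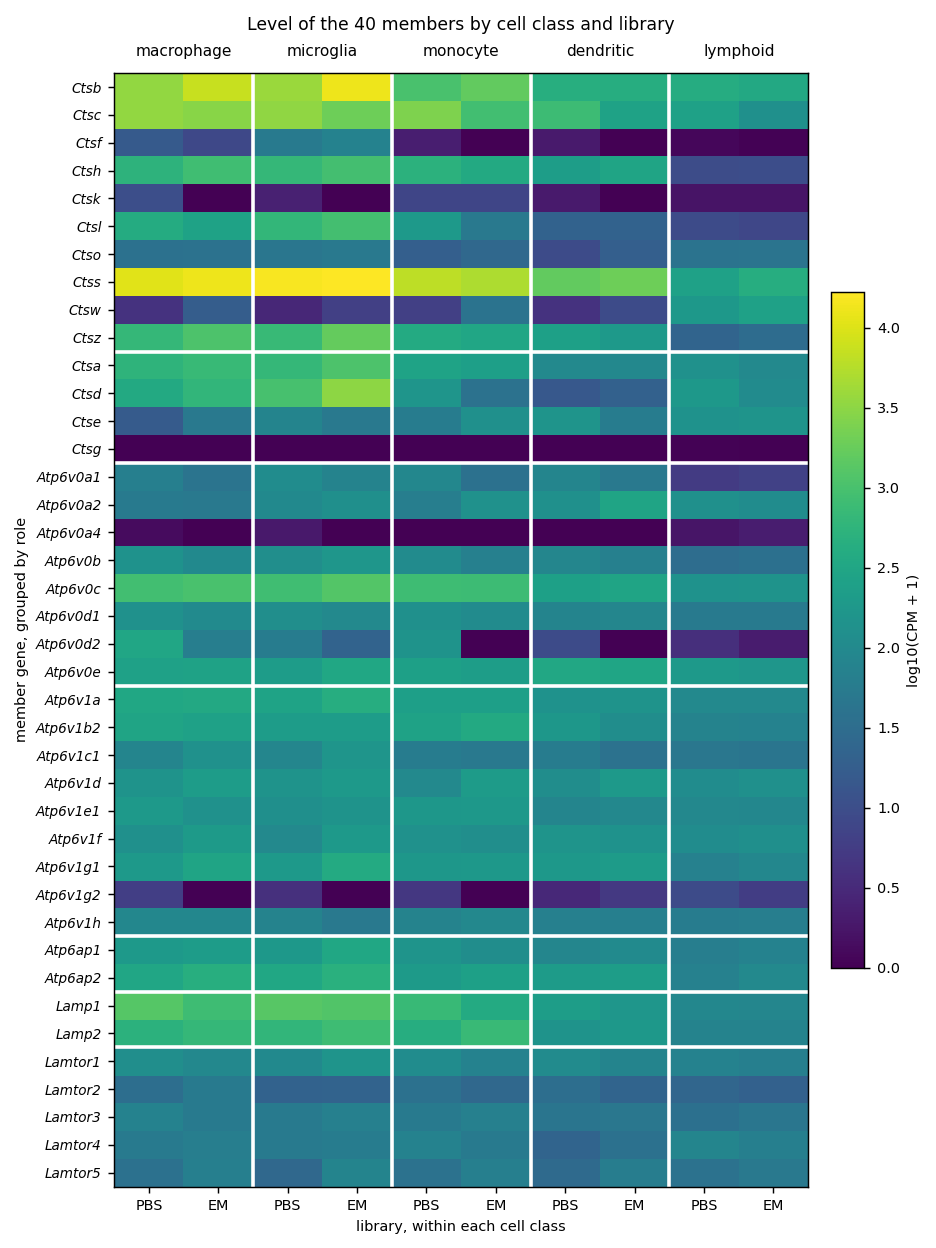
Level of each of the 40 members as log10(CPM + 1), 1 row per gene grouped by role, with a PBS and an EM column for each of 5 cell classes. The bright rows are Ctss, Ctsb and Ctsc in the 3 classes at the left, and Ctsw is brightest in the lymphoid columns.

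A member was called different where EM and PBS differed at least 2-fold and the exact 95% interval of the ratio left out equality, among genes with at least 20 UMIs in the class. These intervals cover counting error only. Of any pair of values given without a library, the first is PBS and the second EM, and a value in parentheses after them is the log2 ratio of EM over PBS, with its interval where 3 values stand there. Alternatives named beside a call are a stricter cell filter (at least 1000 UMIs and 500 genes, at most 10% mitochondrial UMIs), and classes taken from Leiden clusters named by their markers in place of the gate. In macrophages 38 members had enough UMIs, and 3 were higher and 1 lower in EM, where 6.73% of all 11200 genes tested were higher and 12.5% lower. In microglia 35 had enough, and 5 were higher (8.49% of all 8547 genes) and 1 lower (18.2%). In monocytes 36 had enough, and 4 were higher (8.05% of all 8784 genes) and 5 lower (13.3%). In dendritic cells 33 had enough, and 2 were higher (5.82% of all 8390 genes) and 2 lower (8.74%). In lymphoid cells 38 had enough, and 0 were higher (5.09% of all 13137 genes) and 1 lower (9.99%). These shares are near or below those of all genes, except for the higher calls in microglia (5 of 35) and monocytes (4 of 36), which lie above. Over genes with at least 100 UMIs the median log2 ratio of the members was 0.16 in macrophages, against -0.22 for all genes. It was 0.46 against -0.27 in microglia, -0.20 against -0.14 in monocytes, -0.05 against -0.01 in dendritic cells, and -0.01 against -0.10 in lymphoid cells. With the minimum of 20 UMIs the order turned in monocytes (-0.16 against -0.21) and dendritic cells (0.02 against -0.08), and macrophage members stood at 0.16 against -0.02.

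Cathepsin S, which trims the invariant chain of MHC class II and stays active at neutral pH, was the most abundant member in every myeloid class. Ctss (chr3:95526786-95556403, mm10) stood at 10841 CPM in PBS against 13050 CPM in EM macrophages, at 15314 and 16615 CPM in microglia, at 6298 and 5047 CPM in monocytes, and at 1618 and 1921 CPM in dendritic cells. The libraries lay close together in each of these classes, with log2 ratios of EM over PBS from -0.32 to 0.27. Ctss also came first per kilobase of exon, at 7983 and 9610 CPM per kb in macrophages and 11277 and 12235 in microglia. In lymphoid cells Ctss stood at 255 CPM in PBS against 430 CPM in EM, with a log2 ratio of 0.76 (0.70 to 0.81), short of 2-fold.

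Cathepsin B, an enzyme that also removes dipeptides from protein ends, was higher in EM microglia and macrophages. Ctsb (chr14:63122462-63145923) stood at 3807 CPM in PBS microglia and at 13214 CPM in EM microglia, with a log2 ratio of 1.8 (95% interval 1.74 to 1.85). The 155 PBS cells of cluster 18 stood at 4042 CPM and the 275 EM cells of cluster 14 at 14472 CPM. Cluster 18 held 185 PBS and 7 EM cells in all, and cluster 14 held 15 and 385. Setting these clusters side by side thus repeats the comparison of the libraries and is no separate check. Within cluster 10, 10 PBS microglia gave 3452 CPM and 48 EM microglia 9805 CPM. In macrophages Ctsb stood at 3476 and 7329 CPM, with a log2 ratio of 1.08 (1.02 to 1.13). Within cluster 10, which held macrophages of both libraries, 131 PBS cells gave 3276 CPM of Ctsb and 312 EM cells 7069 CPM. The macrophage call is close to the limit: the log2 ratio was 0.85 with the stricter cell filter, 0.89 in named clusters, and 0.93 outside the microglial clusters. In monocytes Ctsb stood at 1021 and 1631 CPM (0.68), and in dendritic cells at 439 and 423 CPM. With every cell thinned to 500 UMIs, a Ctsb UMI was found in 76.5% of PBS and 96.1% of EM microglia (99.1% and 97.9% unthinned), and in 16.9% and 15.7% of lymphoid cells (71.3% and 47.1%).

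Cathepsin C, the dipeptidyl peptidase that activates granzymes and neutrophil proteases, was lower in EM in monocytes and dendritic cells. Ctsc (chr7:88278085-88310888) stood at 2556 CPM in PBS against 889 CPM in EM monocytes, with a log2 ratio of -1.52 (-1.64 to -1.41). In dendritic cells it stood at 787 and 268 CPM, with a log2 ratio of -1.55 (-1.74 to -1.36). Both calls were kept in all 11 alternatives run for each, with log2 ratios from -1.57 to -1.001 in monocytes and from -3.19 to -1.28 in dendritic cells. Within cluster 11 monocytes stood at 2584 CPM in PBS against 1251 CPM in EM, and within cluster 12 dendritic cells at 855 and 278 CPM. The other classes lay short of 2-fold: 256 and 131 CPM in lymphoid cells (-0.97), 3295 and 1974 CPM in microglia (-0.74), and 3413 and 2950 CPM in macrophages (-0.21). All 5 ratios were below 0. After thinning, 60.6% of PBS monocytes and 24.3% of EM monocytes had a Ctsc UMI (90.2% and 62.9% unthinned), against 12.2% and 5.90% of lymphoid cells (57.7% and 23.1%).

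Cathepsin Z, a carboxypeptidase, and cathepsin L, an endopeptidase, differed by class. Ctsz stood at 685 CPM in PBS against 1702 CPM in EM microglia, with a log2 ratio of 1.31 (1.18 to 1.45), and at 648.5 and 1094 CPM in macrophages (0.75), short of 2-fold. Ctsl stood at 185 CPM in PBS monocytes and 50.4 CPM in EM monocytes, with a log2 ratio of -1.87 (-2.39 to -1.39), and within cluster 11 at 186 and 72.8 CPM. In microglia Ctsl stood at 612 and 919 CPM (0.59) and in macrophages at 392 and 274 CPM (-0.52). Outside these classes, the 154 plasmacytoid dendritic cells of the EM library had Ctsl at 892 CPM, a level close to that of EM microglia, while PBS held 0 cells of that class. Ctsh, an aminopeptidase, stood at 544 and 844 CPM in macrophages and 643 and 922 CPM in microglia, and among lymphoid cells it was low in T cells (7.65 and 4.87 CPM) and higher in B cells (138 and 231 CPM).

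The other cysteine cathepsins were lower in the myeloid classes. Ctsw, a cathepsin known from cytotoxic lymphocytes, stood at 175 CPM in PBS against 256 CPM in EM lymphoid cells (0.54), and at 308 and 398 CPM in NK cells. It passed 2-fold in macrophages (3.10 and 16.7 CPM; 36 and 7 UMIs) and monocytes (5.19 and 39.8 CPM; 12 and 30 UMIs). NK markers moved the same way there, from 9.12 to 23.8 CPM in macrophages and from 6.06 to 46.4 CPM in monocytes, as did T cell markers, and their part in Ctsw was not tested. Ctsf, highest in microglia, stood there at 52.3 and 72.1 CPM. Ctso lay between 8.36 and 50.8 CPM in all 5 classes. Ctsk, the collagenase of osteoclasts, stood at 9.46 CPM in PBS macrophages (110 UMIs) and had 0 UMIs in EM macrophages, where 3 counts would be 7.14 CPM, which allows no statement of 2-fold.

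**Figure D2:**
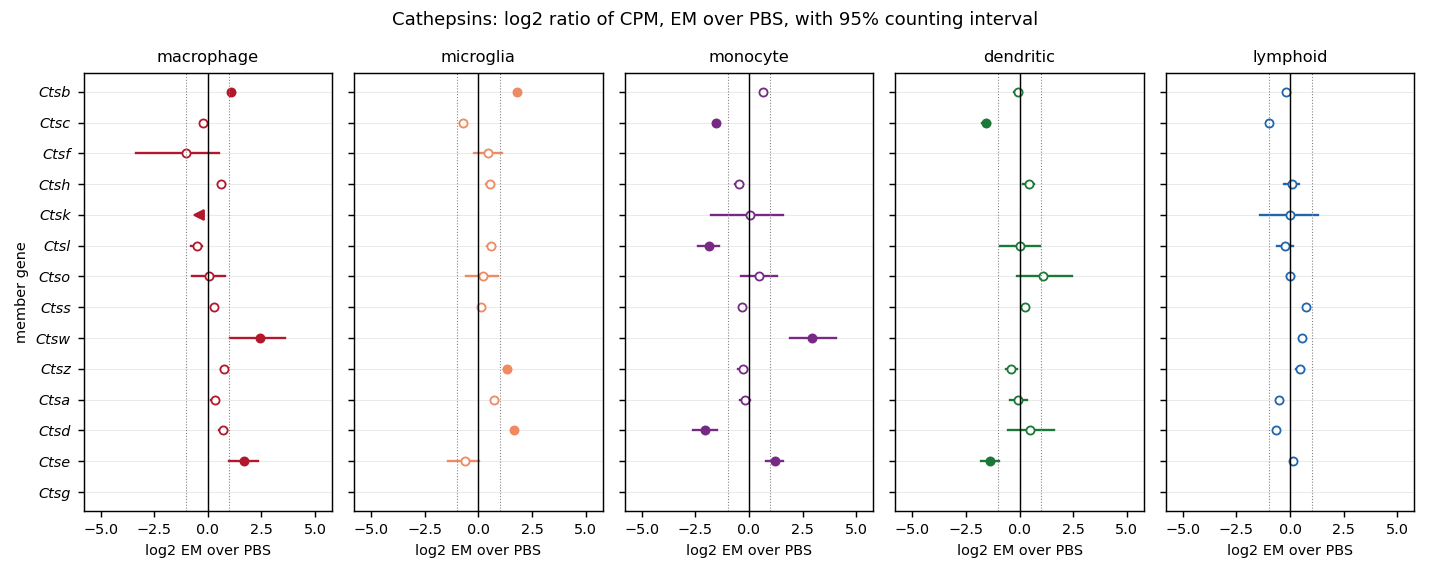
Log2 ratio of CPM, EM over PBS, for the 14 cathepsins in 5 cell classes. Points are ratios, lines are 95% counting intervals, and filled points are at least 2-fold with an interval without equality. The triangle is the ratio with a fixed count put in place of 0 UMIs, and is not the end of the interval. Dotted lines mark 2-fold, and genes under 20 UMIs have no point. Ctsb is filled in macrophages and microglia and Ctsc in monocytes and dendritic cells.

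Among the other cathepsins, the aspartic protease cathepsin D, a main enzyme of protein digestion in lysosomes, was 1 of the 5 members higher in EM microglia. Ctsd (chr7:142375911-142388038) stood at 1000.2 CPM in PBS against 3169 CPM in EM microglia, with a log2 ratio of 1.66 (1.56 to 1.77). Clusters 18 and 14, made up mostly of PBS and of EM cells, gave 1229 and 3729 CPM. Within cluster 10 the EM level was not higher: 10 PBS microglia stood at 746 CPM (16 UMIs) and 48 EM microglia at 668 CPM (30 UMIs). In thinned cells 31.6% of PBS and 63.9% of EM microglia had a Ctsd UMI (91.0% and 77.9% unthinned), against 7.84% and 5.02% of lymphoid cells (49.7% and 20.3%). In macrophages it stood at 370 and 602 CPM (0.70), and in lymphoid cells at 174 and 109 CPM (-0.68). In monocytes it was lower, at 158 and 38.5 CPM (-2.03, -2.63 to -1.49). The monocyte call rests on few cells: 34 PBS cells of cluster 3 held 210 of the 364 UMIs, and within cluster 11 the levels were 81.0 and 48.5 CPM. The log2 ratio was -0.20 in named clusters.

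Cathepsin E, an aspartic protease of endosomes, did not follow cathepsin D. Ctse stood at 15.5 and 49.95 CPM in macrophages (1.69, 0.96 to 2.35), from 21 EM UMIs. The macrophage log2 ratio was 1.06 within cluster 10 and 2.64 with microglial RNA subtracted. In monocytes Ctse stood at 57.6 and 133 CPM (1.21, 0.82 to 1.59). In monocytes of 500 to 2000 UMIs alone the log2 ratio was -0.33. In dendritic cells it stood at 152 and 58.9 CPM (-1.37, -1.79 to -0.95), but at 72.4 and 64.9 CPM within cluster 12, where 53 PBS UMIs were counted, and 22 PBS cells of cluster 21 held 90 of its 145 PBS UMIs. Its highest level was in the 171 EM basophils (727 CPM), followed by plasmacytoid dendritic cells (417 CPM in EM) and B cells (399 CPM in PBS against 322 CPM in EM). Ctsa, the protective protein of lysosomal sialidase, stood at 654 and 1098 CPM in microglia (0.75) and 552 and 685 CPM in macrophages (0.31). Ctsg, a granule serine protease, had 22 of its 24 UMIs in EM basophils, at 48.3 CPM.

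As a share of all cathepsin UMIs, Ctsb went from 14.5% in PBS to 33.2% in EM microglia, from 17.1% to 27.2% in macrophages and from 8.89% to 18.6% in monocytes. Ctss went from 58.5% to 41.8% in microglia and from 53.4% to 48.4% in macrophages, but from 54.9% to 57.4% in monocytes and from 44.8% to 57.9% in dendritic cells. Ctsd went from 3.82% to 7.96% in microglia. Ctsc took a smaller share in EM in all 5 classes, from 22.3% to 10.1% in monocytes, from 21.8% to 8.08% in dendritic cells, from 15.7% to 8.07% in lymphoid cells, from 12.6% to 4.96% in microglia and from 16.8% to 10.9% in macrophages. These shares do not depend on how the libraries were scaled. They are parts of a whole, so a larger share for Ctsb lowers the shares of the other genes. The Ctss share was smaller in EM microglia at levels of 15314 CPM in PBS and 16615 CPM in EM. In lymphoid cells no single cathepsin dominated, with Ctsb at 25.2% and 22.0%, Ctss at 15.6% and 26.6%, and Ctsw at 10.8% and 15.8%.

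**Figure D3:**
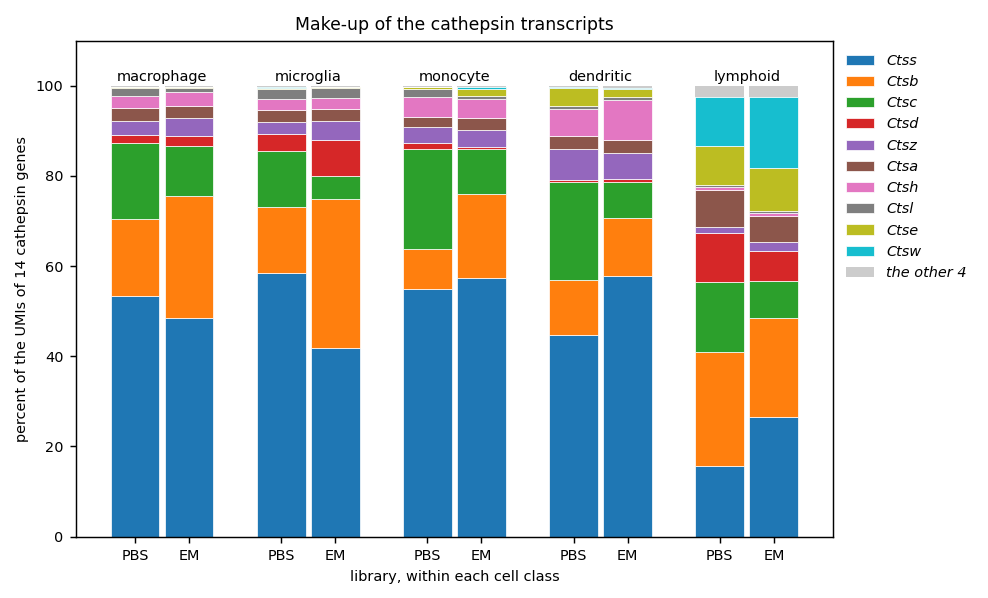
Make-up of the cathepsin transcripts: percent of the UMIs of the 14 cathepsin genes in each cell class and library, stacked from 0 to 100%. The Ctsb segment is taller in EM than in PBS in macrophages, microglia and monocytes, and the Ctsc segment is shorter in EM in all 5 classes.

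In the proton pump, the V0 subunit d2 stood apart from the other subunits. Subunit d sits at the top of V0, and Atp6v0d2 is its isoform known from macrophages and osteoclasts, while Atp6v0d1 is the widely expressed one. Atp6v0d2 (chr4:19876841-19922605) stood at 318 CPM in PBS macrophages (3697 UMIs) and 61.8 CPM in EM macrophages (26 UMIs), with a log2 ratio of -2.36 (-2.98 to -1.81). This call was kept in all 13 alternatives, with log2 ratios from -3.04 to -1.64. Within cluster 10 it stood at 244 CPM in PBS against 78.5 CPM in EM. After thinning, 10.97% of PBS macrophages and 1.56% of EM macrophages had a UMI of it (43.1% and 2.60% unthinned), against 0.166% and 0.0523% of lymphoid cells (1.09% and 0.227%).

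In microglia and monocytes the calls for this gene rest on cells of the macrophage cluster. In microglia it stood at 59.0 and 21.4 CPM (-1.47, from 8 EM UMIs; -0.85 with the stricter cell filter). Of the 123 PBS UMIs, 110 came from 58 microglia in cluster 3, and the main microglial clusters 18 and 14 stood at 8.60 and 6.86 CPM. In monocytes it stood at 144 CPM in PBS and 0 UMIs in EM, 36.2-fold lower with 3 counts set for the EM library. On the log2 scale this value is -5.18, and it is -2.52 with the stricter gate. The counting interval of the ratio ends at -4.87, nearer to equality than -5.18. Of those 333 PBS UMIs, 322 came from 34 cells in cluster 3, and within cluster 11 the PBS level was 5.10 CPM. In lymphoid cells it stood at 2.74 and 1.14 CPM (-1.27). Its partner Atp6v0d1 stood at 137 and 102 CPM in macrophages (-0.42) and lay short of 2-fold in all 5 classes. Atp6v0d2 thus made up 69.8% of subunit d UMIs in PBS macrophages (95% binomial interval 68.6 to 71.1%) and 37.7% in EM macrophages (26.3 to 50.2%).

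Subunit a, the part of V0 through which protons pass and which sets where the pump sits, has 4 isoform genes. Atp6v0a2 was higher in EM in dendritic cells, at 130 CPM in PBS against 291 CPM in EM (1.17, 0.87 to 1.47), and stayed above 2-fold in all 10 alternatives. Within cluster 12 it stood at 149 and 350 CPM, and within cluster 21 at 69.6 and 49.2 CPM. In monocytes it stood at 61.9 and 137 CPM (1.14, 0.76 to 1.52). The monocyte call was not kept in named clusters (0.43) or within cluster 11 (0.55), and 64 EM monocytes in dendritic cluster 12 stood at 265 CPM. Atp6v0a1 was lower in EM monocytes, at 88.3 and 35.8 CPM (-1.30, -1.94 to -0.72), and at 81.6 and 49.2 CPM in dendritic cells (-0.73). Tcirg1, which codes for isoform a3 and is not a member by its symbol, stood at 216 and 64.2 CPM in macrophages (-1.75) and at 239 and 61.4 CPM in microglia (-1.96). Of the UMIs of these 3 genes, Atp6v0a2 took 74.2% in PBS and 77.2% in EM lymphoid cells, against 15.9% and 32.3% in macrophages, 22.4% and 47.5% in microglia, 18.5% and 48.1% in monocytes, and 40.1% and 74.0% in dendritic cells. Atp6v0a4, the kidney isoform, had between 0 and 17 UMIs in each class and library.

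**Figure D4:**
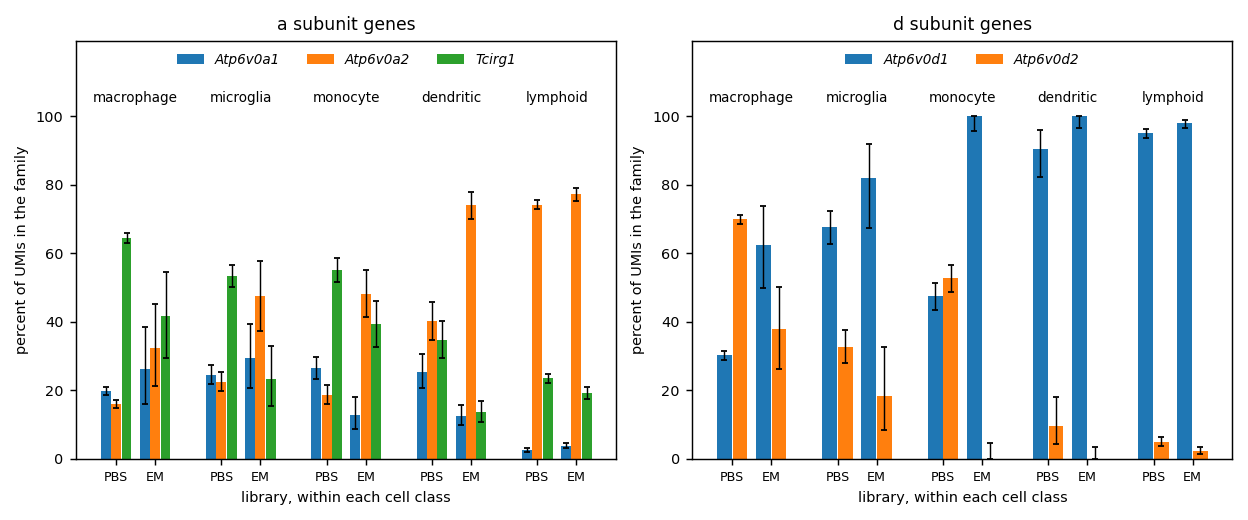
Percent of the UMIs of each subunit family held by each isoform gene, by cell class and library, for subunit a (left) and subunit d (right). Bars start at 0 and lines are exact 95% binomial intervals, which cover counting error only. Atp6v0a2 leads in lymphoid and dendritic cells of both libraries and in EM microglia and monocytes, and Atp6v0d2 leads in PBS macrophages, at 69.8%, and in PBS monocytes.

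The proton-carrying ring and its small partners moved less. Atp6v0c, the ring protein, had the highest CPM among the pump members in macrophages, microglia and monocytes of both libraries, also per kilobase of exon. It stood at 883 and 1030 CPM in macrophages (0.22) and at 836 and 1237 CPM in microglia (0.57). In monocytes it stood at 799.8 and 783 CPM, in dendritic cells at 248 and 288 CPM and in lymphoid cells at 138 and 148 CPM. Atp6v0b, another ring subunit, and Atp6v0e lay short of 2-fold in all 5 classes, with log2 ratios from -0.69 to 0.44 and from -0.19 to 0.58.

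The V1 sector gave 2 calls. Atp6v1g1, a subunit of the peripheral stalk, stood at 191 CPM in PBS against 385 CPM in EM microglia (1.01, 0.72 to 1.29) and fell short of 2-fold with the stricter cell filter (0.85). Atp6v1d, the central rotor, stood at 97.8 and 203 CPM in monocytes (1.05, 0.75 to 1.36). It was 0.79 in thinned cells and 0.14 in cells of 500 to 2000 UMIs. The catalytic subunit Atp6v1a stood at 321 and 347 CPM in macrophages (0.11) and 279 and 430 CPM in microglia (0.63). The nucleotide-binding subunit Atp6v1b2 stood at 296 and 257 CPM in macrophages (-0.20) and 271 and 366 CPM in monocytes (0.43). Of the 8 V1 members with enough UMIs in microglia, 6 had log2 ratios above 0, from 0.24 to 1.01, and Atp6v1b2 and Atp6v1h stood at -0.05 and -0.61. Summed over the sector, V1 made up 0.122% of microglial UMIs in PBS and 0.176% in EM, and V0 0.157% and 0.204%. In macrophages V1 went from 0.144% to 0.167% and V0 from 0.186% to 0.165%, the V0 sum including the Atp6v0d2 difference.

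The accessory proteins, which help to assemble the pump, gave no call. Atp6ap1 stood at 180 and 329 CPM in microglia (0.87, 0.56 to 1.16) and 188 and 216.5 CPM in macrophages (0.20). Atp6ap2, also known as the prorenin receptor, stood at 326 and 484 CPM in microglia (0.57) and at 312 and 440 CPM in macrophages (0.50), and its log2 ratio was above 0 in all 5 classes.

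Lamp1 and Lamp2, the main glycoproteins of the lysosomal membrane, differed in direction within macrophages and monocytes, where both intervals left out equality. Lamp1 (chr8:13159161-13175338) stood at 1271 CPM in PBS against 802 CPM in EM macrophages (-0.67, -0.83 to -0.51) and at 688 and 384 CPM in monocytes (-0.84, -1.03 to -0.66). Lamp2 stood at 519 and 645 CPM in macrophages (0.31, 0.13 to 0.49) and at 420 and 725 CPM in monocytes (0.79, 0.63 to 0.94). In microglia Lamp1 stood at 1307 and 1184 CPM (-0.14) and Lamp2 at 590 and 815 CPM (0.47). In dendritic cells Lamp1 stood at 223 and 167 CPM (-0.42) and Lamp2 at 144 and 177 CPM (0.30). Both ratios were below 0 in lymphoid cells. Neither gene passed 2-fold in any of the 5 classes. In monocytes Lamp1 stood above Lamp2 in PBS (688 against 420 CPM) and below it in EM (384 against 725 CPM).

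Lamtor5 was the 1 Ragulator gene to be called. It stood at 25.4 CPM in PBS against 80.1 CPM in EM microglia (1.66, 0.96 to 2.33), from 53 and 30 UMIs, and at 28.2 and 61.3 CPM in dendritic cells (1.12, 0.47 to 1.81). Its log2 ratio was above 0 in all 5 classes, at 0.87 in macrophages, 0.76 in monocytes and 0.43 in lymphoid cells. Lamtor1 to Lamtor4 lay between 19.7 and 152 CPM and short of 2-fold throughout, with log2 ratios from -0.64 to 0.74. Lamtor1, the lipid-anchored subunit that holds the complex on the membrane, stood at 99.3 and 152 CPM in microglia (0.62) and at 114 and 73.0 CPM in monocytes (-0.64).

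**Figure D5:**
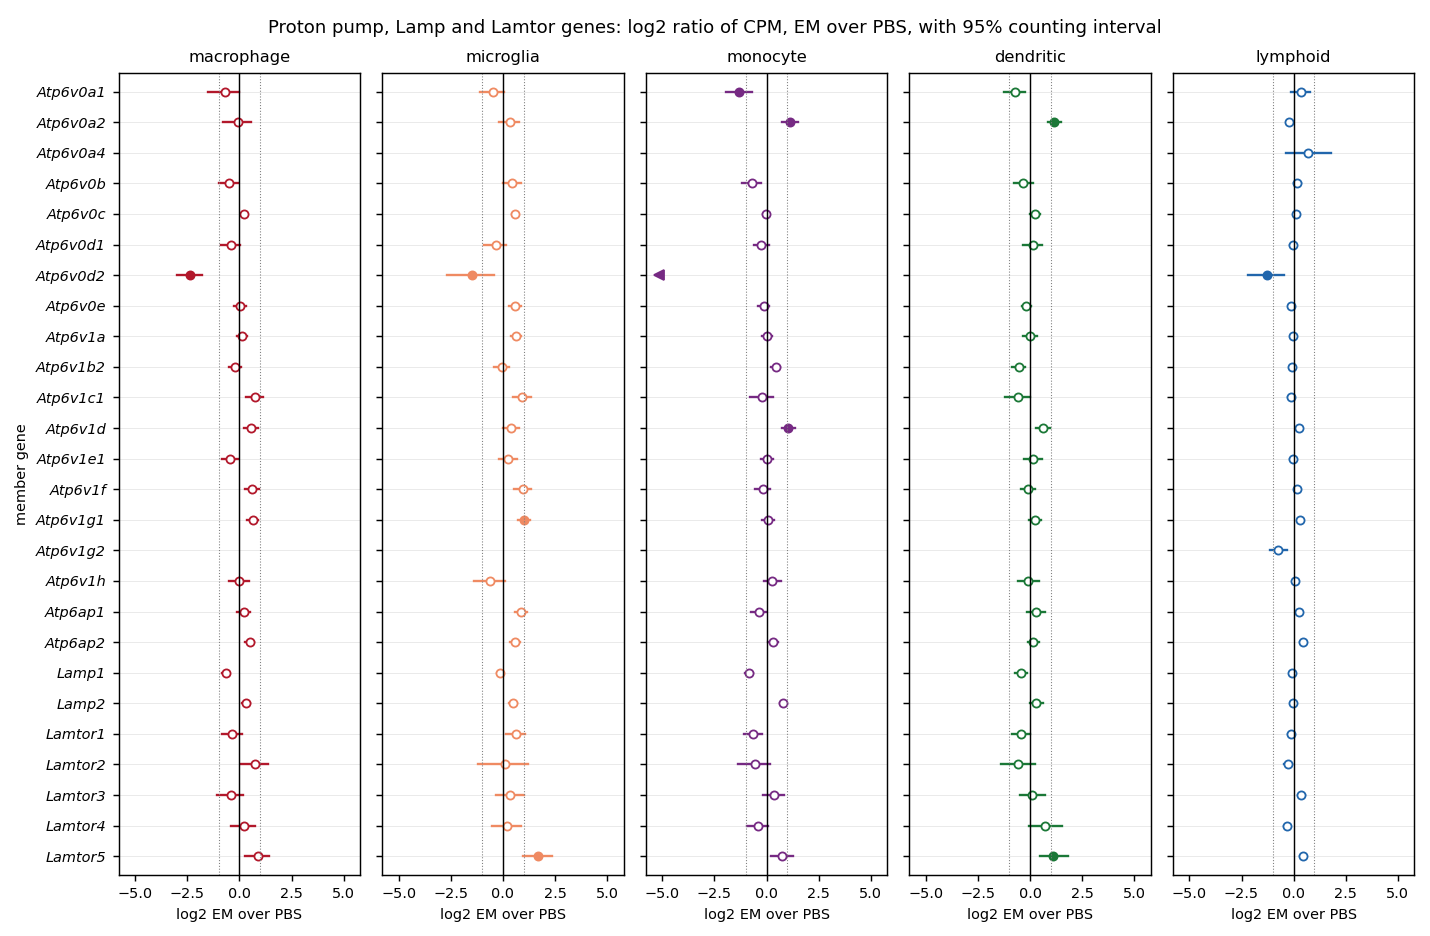
Log2 ratio of CPM, EM over PBS, for the 26 pump, Lamp and Lamtor members in 5 cell classes, drawn as in the plot of cathepsin ratios. Filled points are at least 2-fold with an interval without equality, and lines are 95% counting intervals. The triangle is the ratio with a fixed count put in place of 0 UMIs, and is not the end of the interval. Most points lie between the dotted 2-fold lines, and Atp6v0d2 lies to the left in macrophages, microglia, monocytes and lymphoid cells.

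Lists of related genes that are not members give the surroundings of these values. Of 5 pump genes outside the symbol rule with enough UMIs, 5 were lower in EM microglia (18.2% of all genes were) and 3 in EM macrophages (12.5%): Tcirg1, the assembly factors Dmxl1 and Dmxl2 and, in microglia, also Wdr7 and Rogdi. In monocytes 3 of 5 were lower (Dmxl1, Dmxl2 and Rogdi), in dendritic cells 1 of 4 (Tcirg1) and in lymphoid cells 1 of 6 (Dmxl2). Dmxl1 stood at 89.7 and 14.3 CPM in macrophages, from 6 EM UMIs. Malat1 was lower in EM macrophages and microglia, by the values given above, and its part was not tested. Of the cystatins, which inhibit cysteine cathepsins, Cst7 was higher in all 4 myeloid classes: 5.33 and 150 CPM in macrophages (4.81), 144 and 657 CPM in microglia (2.19), 5.19 and 34.5 CPM in monocytes, and 2.09 and 17.7 CPM in dendritic cells. In lymphoid cells it stood at 205 and 161 CPM, and T cell markers were higher in the same myeloid classes, in monocytes from 1.28 to 4.41% of their T cell level; their part in Cst7 was not tested. Cstb, an intracellular inhibitor, was higher in EM microglia, at 249 and 553 CPM (1.15). Cst3, the secreted cystatin C, stood at 5210 and 7927 CPM in microglia (0.61) and lay short of 2-fold in all 4 of these classes.

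Of 30 other lysosomal genes, 5 were higher (8.49% of all genes were) and 0 lower in EM microglia: Cd68, Gaa, Glb1, Grn and Lipa. Grn, which codes for progranulin, stood at 1426 and 3519 CPM, and the phagocyte marker Cd68 at 585 and 1678 CPM. In macrophages 1 of 30 was higher (Cd63, a membrane protein of late endosomes, at 461 and 1006 CPM) and 1 lower (Neu1, at 68.0 and 28.5 CPM). In monocytes 1 of 28 was higher (Npc2, a cholesterol carrier, at 652 and 1316 CPM) and 9 were lower, among them Lipa (145 and 63.7 CPM) and Cd63 (82.7 and 22.6 CPM). In dendritic cells 2 of 26 were higher and 5 lower, and in lymphoid cells 0 of 30 in either direction. Of the genes of TFEB and Rag signalling, 5 of 12 were lower in macrophages, where 12.5% of all genes were, and 5 of 11 in microglia, where 18.2% were, with 0 higher in both: Flcn, Fnip1, Mitf and Slc38a9 in both classes, Tfec in macrophages and Tfe3 in microglia. In monocytes 1 of 11 was higher (Rraga) and 1 lower (Mitf), in dendritic cells 1 of 10 was lower (Mitf), and in lymphoid cells 2 of 12 were lower (Mitf and Tfec). Tfeb itself stood at 16.9 and 14.3 CPM in macrophages and 18.2 and 21.4 CPM in microglia.

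The counting of overlapping genes could touch some of these values. By GENCODE M21, 14 of the 40 members share exonic bases with another gene, and whether reads were counted by strand is not given in the sources used here. Fdft1, which overlaps Ctsb on the opposite strand, stood at 17.7 and 16.0 CPM in microglia, far below Ctsb. Gm49369, which overlaps Ctsd on the same strand, stood at 2.88 and 13.4 CPM there, far below Ctsd. Fibp, which overlaps Ctsw on the opposite strand, was not low beside it in macrophages, at 19.4 and 14.3 CPM where Ctsw stood at 3.10 and 16.7 CPM, so the macrophage call of Ctsw is uncertain on this count too.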

How the data were processed

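UMI counts per gene and cell were measured in 2 libraries, 1 PBS and 1 EM. The authors deposited them as raw count matrices with 31253 genes; CASAVA 1.8, STARsolo and the mm10 genome are named in the submitters' processing notes, while the gene models and the strand setting are not given in the sources used. PBS had 8333 barcodes and 45043934 UMIs and EM 8039 barcodes and 19385631 UMIs. Cells were kept with at least 500 UMIs, at least 200 genes and at most 20% mitochondrial UMIs. The libraries shared 66 barcodes.

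Cells were gated on summed marker scores by a rule set after seeing the data. A class needed a score of at least 0.3 of the 99th percentile. Cells in which another lineage reached over 0.67 of the leading score (429 PBS and 263 EM) were left out. Macrophage, monocyte and dendritic scores were treated as the same lineage in that step. The monocyte score was not set against a leading lymphoid score. Microglia were macrophage-gated cells with a microglial score of at least 0.3. No doublet caller was run. UMIs were summed per class and library, given as CPM with exact Poisson 95% intervals, and compared as ratios with exact conditional binomial intervals (scipy 1.17.1), where a library at 0 was set to 3 counts. Shares have exact Clopper-Pearson intervals. UMIs are single molecules, but cells of 1 library are not replicates, so these intervals cover counting error only and no p-value was computed. Leiden clusters (scanpy 1.11.5, leidenalg 0.10.2) served as description and alternative. On simulated counts the intervals held the true ratio for 95.65% (lymphoid cells) to 97.03% (macrophages) of genes. These counts were drawn from the Poisson model that the intervals assume, without variation between cells or libraries. They cannot show whether that model holds for these data.

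Named with full values were members at least 2-fold different in a class with at least 100 UMIs there, the 3 highest of each role, and those highest outside macrophages, microglia and monocytes; others were chosen after their values were seen. The members and lists were chosen with earlier results of these data known. Some genes of the list of other lysosomal genes are not reported here and are left out of its counts. Ensembl gene identifiers of 40 of 40 members matched GENCODE M21, which gave exon lengths and coordinates (mm10). Alternatives were cell filters, gates, cluster-based classes, weighting, centring, depth matching and removal of shared barcodes.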

Additional observations from a re-analysis of the deposited data

Results flagged for a closer look

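Ctse moved in opposite directions between classes, with log2 ratios of EM over PBS of 1.69 in macrophages and 1.21 in monocytes and of -1.37 in dendritic cells. Ctsd did so between microglia, at 1.66, and monocytes, at -2.03. With 1 library per group the difference between the classes was not tested in either case. The Ctsd ratio of monocytes was -0.20 in named clusters, and the Ctse ratio of dendritic cells was -0.16 within 1 cluster.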

How the results depend on the processing

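No paired analysis was possible because each group has 1 library. For the same reason no replicate could be left out. Of 201 alternative values for 20 pairs of a gene and a class, 200 had the direction of the reported value. The exception was Ctse in monocytes of 500 to 2000 UMIs, at -0.33. Of the 20 pairs, 11 were past 2-fold in every alternative run for them. They include Atp6v0d2 in monocytes, which was not run in named clusters, within 1 cluster, in thinned cells or in cells of 500 to 2000 UMIs. With equal weight per cell its reported value was carried over, since EM held 0 UMIs. Calls that ended were Ctsb in macrophages (1.00, just under 2-fold, with microglial RNA subtracted, at 10.6% of macrophage UMIs in PBS and 7.34% in EM), Ctse in monocytes (0.79 in cells thinned to 500 UMIs and 0.86 with equal weight per cell), Ctsd in monocytes (-0.88 with the stricter gate and -0.74 within 1 cluster), Atp6v0a1 in monocytes (-0.98 in thinned cells), Atp6v1g1 in microglia (0.95 with equal weight and 0.96 with the stricter gate), and those given beside the results. The median ratio of the members was 0.72 in microglia after centring on all genes and 0.66 in thinned microglia, and 0.62 in dendritic cells of 500 to 2000 UMIs. In macrophages it was -0.04 in named clusters and 0.00 outside the microglial clusters. Restriction to 500 to 2000 UMIs and to 1 cluster was not run for microglia, nor any alternative for a gene under the minimum of UMIs. The alternatives on depth, 1 cluster, shared barcodes and microglial RNA were chosen after seeing the data. EM macrophages and microglia, at medians of 851.5 and 867 UMIs, limit what can be said of low members.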
